A study of Mus musculus with 10 samples.

Results

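The enzymes that carry long-chain fatty acids into mitochondria and shorten them there were followed across knockdown of LSD1, a histone demethylase encoded by Kdm1a, in 3T3-L1 cells, an established line of mouse embryo fibroblasts that can be induced to form fat cells. The genes are Cpt1a, Slc25a20, Cpt2, Acadvl, Acadl, Acadm, Acads, Hadha and Hadhb, a list of 9 named enzymes and carriers among 18193 genes with a probe set of their own. Every probe set (the group of short array oligonucleotides that reports a transcript) annotated with one of these symbols alone was taken, which gave 16 of 34945 such probe sets. All 9 genes were among the 13644 genes tested, and 2 of the 16 probe sets, a second one of Acadl and a second one of Cpt2, had a mean at or below 18.4 intensity units, the level under which genes were left out as dim.

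Each of the 10 Affymetrix arrays held total RNA of its own sample, labelled with biotin. The groups were siLsd1 at 24 h (2 arrays), siC at 24 h (2 arrays), siLsd1 at 48 h (3 arrays) and siC at 48 h (3 arrays), where siLsd1 is an siRNA against LSD1 and siC a scrambled one. All cells were preadipocytes (day 0 in the labels), received 60 nM siRNA and had no change of medium before RNA was taken. Cells collected at 24 h were of passage 19 and those collected at 48 h of passage 21, so time and passage cannot be told apart. The labels call the replicates biological without naming separate cultures, so each p-value reflects the spread among these arrays, which may be partly technical.

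Long-chain fatty acids enter mitochondria as carnitine esters. CPT1A makes the ester at the outer membrane, the carrier encoded by Slc25a20 moves it across the inner membrane, and CPT2 restores the acyl-CoA inside. A chain-length family of acyl-CoA dehydrogenases then starts each round of beta-oxidation, and for long chains the trifunctional protein, built from HADHA and HADHB, carries out the remaining steps. The pathway is best known from liver, muscle and brown fat, where PPAR and ERR nuclear receptors drive many of its genes, and white preadipocytes express it as well.

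The 250 bases before the RefSeq start site were found for all 9 genes (build GRCm38.p6), and 3 of them are printed, 5′ to 3′ on the gene's own strand, with GC boxes (GGGCGG, or CCGCCC on the other strand) and nuclear receptor hexamers (AGGTCA, or TGACCT on the other strand) in capitals. Acadm is shown because it had the largest siLsd1 change of the 9 genes, Acadl because it had the only positive one, and Hadhb because it shares its upstream region with Hadha, which runs the other way on chromosome 5. The Acadm window is chr3:153944644-153944893 on the minus strand, the Acadl window chr1:66863310-66863559 on the minus strand, and the Hadhb window chr5:30155003-30155252 on the plus strand.
Acadm: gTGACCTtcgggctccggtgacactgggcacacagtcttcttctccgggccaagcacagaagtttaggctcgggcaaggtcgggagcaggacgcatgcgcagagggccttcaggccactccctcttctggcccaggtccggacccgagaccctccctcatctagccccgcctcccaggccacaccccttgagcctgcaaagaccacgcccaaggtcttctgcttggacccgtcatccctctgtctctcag
Acadl: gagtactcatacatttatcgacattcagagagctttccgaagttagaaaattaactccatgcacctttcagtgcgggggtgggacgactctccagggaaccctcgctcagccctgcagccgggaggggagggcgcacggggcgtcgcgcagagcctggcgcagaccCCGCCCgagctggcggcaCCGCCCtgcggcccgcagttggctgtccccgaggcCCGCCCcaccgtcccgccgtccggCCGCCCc
Hadhb: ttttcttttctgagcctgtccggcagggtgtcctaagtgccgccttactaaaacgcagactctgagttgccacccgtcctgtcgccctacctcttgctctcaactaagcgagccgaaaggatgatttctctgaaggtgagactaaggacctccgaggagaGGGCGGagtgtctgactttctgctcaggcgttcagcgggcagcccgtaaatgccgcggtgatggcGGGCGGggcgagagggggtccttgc

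The Acadm window held a receptor hexamer near its upstream end and no GC box, while the Acadl window held 4 GC boxes and no such hexamer. Receptor hexamers lay in 3 of the 9 windows (Acadm, Acadvl and Cpt1a), against 14.0% of 32851 RefSeq windows of the same length. GC boxes lay in 7 of the 9, all but Acadm and Acadvl, against 32.7%. The direct repeat of hexamers with a spacer of a single base (AGGTCANAGGTCA), which PPAR binds, was in 0 of 9 windows and in 0.0335% of all windows. The extended site of ERR (TCAAGGTCA, which contains the hexamer) was in 0 of 9 and 0.387%, and a CCAAT box was in 1 of 9, that of Cpt1a, and 33.8%. All motifs were searched on both strands, and the matches describe letters in these windows alone. The start sites of Hadha and Hadhb are 272 bases apart, and 228 bases belong to the windows of both genes. The GC box of the Hadha window lies in that stretch and is the same site as a GC box of the Hadhb window, so it counts for both.

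Values are intensities on a linear scale as deposited, and changes are differences of log2 intensity, siLsd1 minus siC. Median intensity per array lay between 35.6 and 40.6. Kdm1a, the targeted gene, read 1001 and 971 on the siLsd1 arrays at 24 h, against 1559 and 1621 on the siC arrays. At 48 h it read 1352, 1336 and 897 with siLsd1, against 1596, 1787 and 1775 with siC, so that every siLsd1 array lay below every siC array. The third siLsd1 array at 48 h stands apart. Over 6943 bright genes its log2 values differed from those of the other siLsd1 arrays at 48 h with an SD of 0.44 (both pairs), while those other arrays differed from each other with an SD of 0.0892 and the siC arrays at 48 h with SDs of 0.12 to 0.20. The third siLsd1 array at 48 h differed from the siLsd1 arrays of 24 h with SDs of 0.36 and 0.35. From each siC array of 48 h it differed with an SD of 0.60. The other siLsd1 arrays at 48 h differed from those siC arrays with SDs of 0.27 to 0.32. Why the third array stands apart was not tested. Changes of the 9 genes at 48 h and in the mean of both times, and the counts over lists, are therefore given with and without it. Of the preadipocyte and fibroblast markers, 10 of the 11 measured passed the limit on dim genes, and Cd34 did not. Of the mature adipocyte markers 6 of the 10 measured passed it, among them Lpl at 8650 to 10134 units, while Cidec, Lep, Retn and Pck1 did not. The limit was also passed by 8 of 10 macrophage, 2 of 8 endothelial, 2 of 6 epithelial and 6 of 8 muscle markers. Summed intensities of the macrophage, endothelial, epithelial and muscle lists reached at most 1044, 205, 119 and 496 units. The preadipocyte and fibroblast list summed to at least 63475 units and the mature adipocyte list to at least 10912.

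With siLsd1 the transcript of Acadm, the medium-chain acyl-CoA dehydrogenase, was lower at both times, by 1.76-fold at 24 h and 1.57-fold at 48 h. Acads, Acadvl and Hadhb, which code for the short-chain and very-long-chain dehydrogenases and the thiolase subunit of the trifunctional protein, were lower by 1.21-fold to 1.24-fold in the mean of both times and were not called at either time alone. The carnitine shuttle (Cpt1a, Slc25a20, Cpt2) and Hadha did not pass the test, and Acadl, the long-chain dehydrogenase, had a small positive change that did not pass it either. A gene is called here at an adjusted p under 0.05, from limma with Benjamini-Hochberg adjustment over all 13644 genes. At 24 h 1 of the 9 genes was called, lower (2.79% of all genes tested were called lower and 2.60% higher), and at 48 h 1 of 9, lower (6.67% lower and 6.00% higher). In the mean of both times 4 of 9 were called lower (13.7% lower and 10.1% higher). Arrays centred on their medians gave 330 genes higher and 540 lower at 24 h, in place of 355 and 381, and 1043 and 756 at 48 h, in place of 818 and 910. In bulk RNA fewer cells of a kind and less RNA per cell cannot be told apart.

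**Figure D1:**
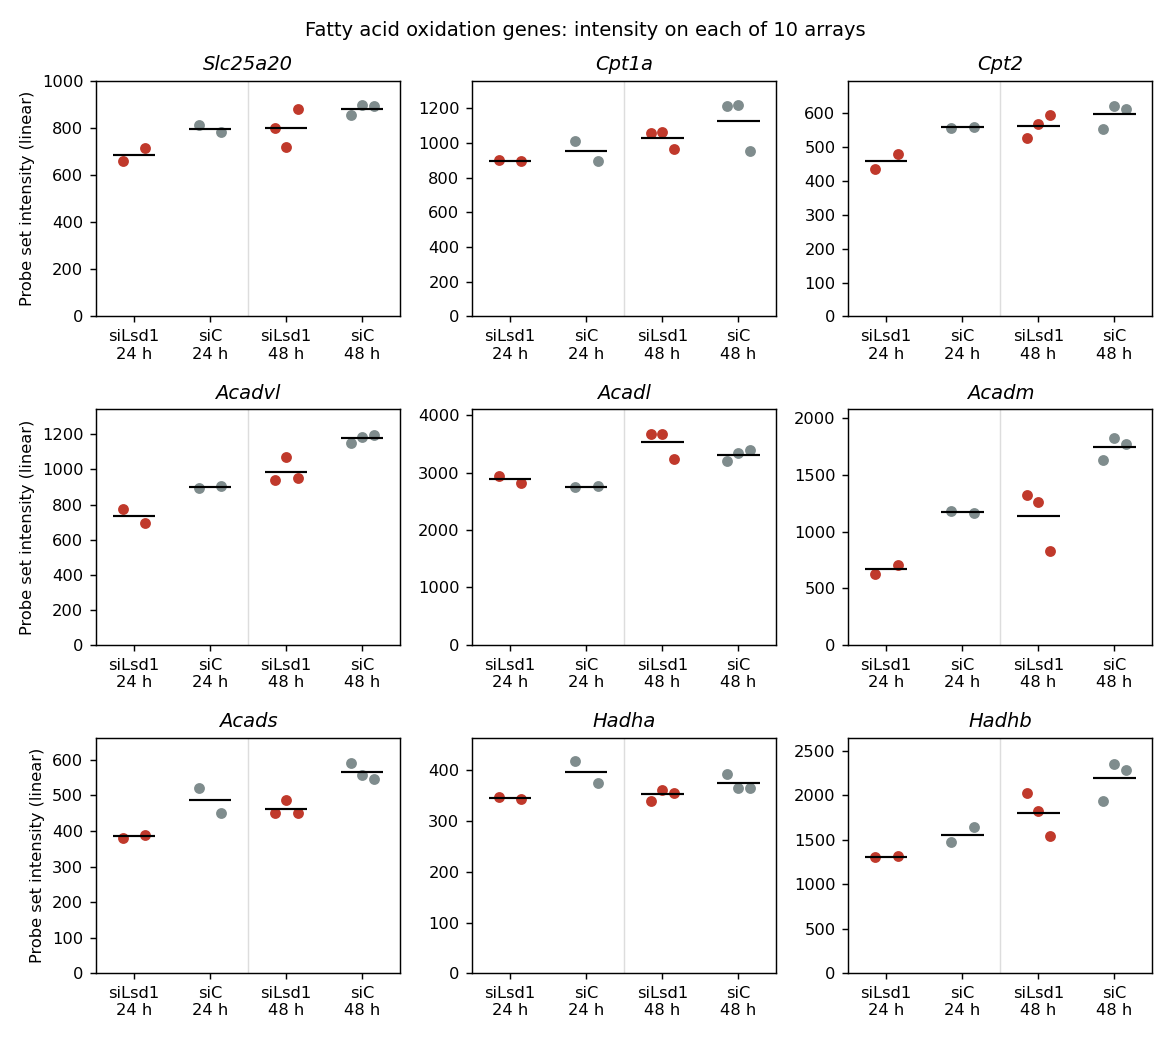
Intensity of each of the 9 genes by array (linear scale, the brightest probe set of the gene), with siLsd1 left of siC at 24 h and at 48 h; points are single arrays and bars are group means. All 5 Acadm points of siLsd1 lie below the siC points of their own time, and the Acadl points of siLsd1 do not.

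Of the acyl-CoA dehydrogenases, which put the first double bond into the chain, Acadm acts on medium chains and is the one deficient in MCAD deficiency. Its only probe set (Entrez gene 11364) read 629 and 708 on the siLsd1 arrays at 24 h, against 1183 and 1165 on the siC arrays. At 48 h the readings were 1320.1, 1259.6 and 831 with siLsd1, against 1634, 1830.3 and 1774 with siC. The siLsd1 arrays lay below the siC arrays at each time without overlap, and the third siLsd1 array at 48 h was the lowest of its group. Means were 668 ± 55.8 with siLsd1 and 1174 ± 12.6 with siC at 24 h (SD, n = 2 each), and 1137 ± 267 with siLsd1 and 1746 ± 101 with siC at 48 h (SD, n = 3 each). The log2 change was -0.82 at 24 h (SE 0.19, limma adjusted p = 0.0354), -0.65 at 48 h (SE 0.15, adjusted p = 0.0277) and -0.73 in the mean of both times (SE 0.12, adjusted p = 0.00334). Without the third siLsd1 array at 48 h the changes were -0.82 (adjusted p = 3.92e-05), -0.44 (adjusted p = 0.00171, 1.35-fold) and -0.63 (adjusted p = 7.43e-06). For this and every other gene, leaving out that array keeps the 24 h change and alters only the spread estimated over all groups. Calls at 24 h gained in this way add no evidence from the 24 h arrays. Over all genes that fit called 25.5% at 24 h, against 5.39% with all arrays.

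The Acadm call in the mean of both times was made in all 21 alternative fits, with adjusted p between 1.12e-06 and 0.0254. The calls at single times rest on few arrays. At 24 h the call was lost in 7 of the 10 fits that leave out 1 array. Some were the fits without an array of 24 h, where a group keeps 1 array and the change was -0.90 to -0.73. The others were the fits without a siC array of 48 h (adjusted p = 0.054 to 0.0684). These called 2.62% to 4.55% of all genes at 24 h, against 5.39% with all arrays. At 48 h the call was lost without any one of the siC arrays of 48 h (adjusted p = 0.0658, 0.0986 and 0.0798). There 2.8% to 4.1% of all genes were called at 48 h, against 12.7% with all arrays.

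Acads, the dehydrogenase of short chains, read 380.3 and 389 with siLsd1 at 24 h, against 522 and 451 with siC. On the 48 h arrays it read 449.6, 488 and 449.8 with siLsd1, against 591, 557 and 547 with siC. No siLsd1 array reached a siC array of its time. The log2 change was -0.33 at 24 h (adjusted p = 0.0941), -0.29 at 48 h (adjusted p = 0.0526) and -0.31 in the mean of both times (SE 0.07, limma adjusted p = 0.0103). The last call was lost without the first siC array (adjusted p = 0.0539) or the first siLsd1 array (0.0533) of 24 h. With the third siLsd1 array of 48 h left out the changes at 24 h, 48 h and in the mean were -0.33, -0.27 and -0.30, all called (adjusted p = 0.0172, 0.0407 and 0.0025).

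Acadvl codes for the membrane-bound dehydrogenase of very long chains. It read 773 and 693 with siLsd1 at 24 h, against 892 and 906 with siC. The readings at 48 h were 939, 1072 and 950.0 with siLsd1, against 1153, 1184 and 1195 with siC. The groups did not overlap at either time, and here the third siLsd1 array at 48 h was not the lowest of its group. The log2 change was -0.30 at 24 h (adjusted p = 0.104), -0.26 at 48 h (adjusted p = 0.0575) and -0.28 in the mean of both times (SE 0.06, limma adjusted p = 0.0119). Without the second siLsd1 array of 24 h the adjusted p of the mean was 0.063. When the third siLsd1 array of 48 h was left out instead, 24 h was called at -0.30 (adjusted p = 0.0178), 48 h at -0.23 (0.0479) and the mean at -0.26 (0.00288).

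Acadl, the long-chain dehydrogenase, read 2942 and 2821 with siLsd1 at 24 h, against 2752 and 2762 with siC. For 48 h the values were 3673, 3679 and 3242 with siLsd1, against 3202, 3335 and 3396 with siC. The siLsd1 arrays were above the siC arrays at 24 h and overlapped them at 48 h through the third siLsd1 array. The log2 change was 0.06 at 24 h (adjusted p = 0.683), 0.09 at 48 h (adjusted p = 0.357) and 0.08 in the mean (95% interval -0.03 to 0.19, limma adjusted p = 0.294). Without the third siLsd1 array at 48 h it was called higher at 48 h, at 0.15 (adjusted p = 0.0404), and in the mean, at 0.11 (adjusted p = 0.029). The second Acadl probe set read between 4.06 and 15.9 on all arrays, below the limit on dim genes.

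The first enzyme of the carnitine shuttle, Cpt1a, is the step that malonyl-CoA inhibits. Its brightest probe set read 900.2 and 894 with siLsd1 at 24 h, against 1009.7 and 896 with siC. On arrays of 48 h it read 1057, 1059.8 and 962 with siLsd1, against 1211, 1216 and 950.3 with siC. By this probe set the groups overlapped at both times, and the change in the mean was -0.11 (95% interval -0.29 to 0.08, adjusted p = 0.394). Leaving out the third siLsd1 array of 48 h gave -0.08 at 48 h (adjusted p = 0.651) and -0.08 in the mean (adjusted p = 0.45). The other probe sets of Cpt1a, almost as bright (means of 1012 and 1009 units against 1016), gave -0.17 and -0.12 in the mean and were not called either. At 24 h they showed no overlap, with 780 and 790 against 858 and 964, and 796 and 798 against 904 and 910. At 48 h the groups overlapped by these probe sets too.

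Slc25a20 codes for the carnitine-acylcarnitine translocase. It read 661 and 714 with siLsd1 at 24 h, against 815 and 782 with siC. At 48 h it read 799.7, 721 and 882 with siLsd1, against 858, 898 and 894 with siC. The third siLsd1 array at 48 h fell among the siC arrays, and the change in the mean was -0.18 (95% interval -0.33 to -0.03, adjusted p = 0.0833). Without that array the change was called at 48 h (-0.22, adjusted p = 0.0478) and in the mean (-0.22, adjusted p = 0.00647). Its second probe set, at 306 to 422 units, had smaller changes of -0.15 at 24 h, -0.09 at 48 h and -0.12 in the mean (adjusted p = 0.424 over all probe sets).

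Cpt2, the carnitine palmitoyltransferase of the inner membrane, read 436 and 479.8 with siLsd1 at 24 h, against 556 and 560.4 with siC. At 48 h the readings were 527, 569.6 and 595 with siLsd1, against 554, 623 and 613 with siC. The groups were apart at 24 h and overlapped at 48 h, and the changes were -0.29 (adjusted p = 0.141) and -0.08 (adjusted p = 0.554). The mean of both times was -0.18 (95% interval -0.34 to -0.03, adjusted p = 0.0752). Without the third siLsd1 array at 48 h the mean was called at -0.20 (adjusted p = 0.0181), and so was 24 h at -0.29 (adjusted p = 0.0293). The second, dim Cpt2 probe set, at 9.49 to 27.65 units, had -0.13 at 24 h, 0.32 at 48 h and 0.10 in the mean. None of these was called (limma adjusted p = 0.939, 0.663 and 0.882 over all probe sets).

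The trifunctional protein is a complex of HADHA, with the hydratase and the hydroxyacyl-CoA dehydrogenase, and HADHB, with the thiolase. Hadha read 347 and 344 with siLsd1 at 24 h, against 418 and 375 with siC. On the 48 h arrays it read 340.3, 362 and 356 with siLsd1, against 393, 365 and 364 with siC. The groups did not overlap at either time, but at 48 h the highest siLsd1 array and the lowest siC array were nearly level, and the change in the mean was -0.14 (95% interval -0.29 to 0.00, adjusted p = 0.144). It was -0.14 without the third siLsd1 array of 48 h (adjusted p = 0.0778), and -0.09 at 48 h (adjusted p = 0.473).

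Hadhb read 1304 and 1318 with siLsd1 at 24 h, against 1472 and 1647 with siC, by its brightest probe set. The readings at 48 h were 2022, 1826 and 1543 with siLsd1, against 1937, 2351 and 2286 with siC. The first siLsd1 array at 48 h lay above the lowest siC array, while at 24 h the groups were apart. The change was -0.25 at 24 h (adjusted p = 0.312), -0.29 at 48 h (adjusted p = 0.103) and -0.27 in the mean (SE 0.09, limma adjusted p = 0.0479). That last call held in 8 of 21 alternative fits. It was lost without any one array of 24 h, where a group keeps 1 array. It was also lost without the second or the third siC array of 48 h (adjusted p = 0.108 and 0.0986) or the second siLsd1 array of 48 h (0.0622). These 48 h fits called 15.7%, 17.4% and 24.3% of all genes in the mean, against 23.8% with all arrays. Leaving out the third siLsd1 array of 48 h kept the call, at -0.22 (adjusted p = 0.0226), with -0.18 at 48 h (adjusted p = 0.175).

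The second Hadhb probe set read 627 and 663 with siLsd1 at 24 h, against 793 and 799.7 with siC. For 48 h the values were 904, 944 and 875 with siLsd1, against 1048, 1119 and 1069 with siC, with no overlap at either time. Its change in the mean was -0.28 (adjusted p = 0.0114 over all 34945 probe sets with a single symbol, of which 6.15% were called lower). The third Hadhb probe set was close to the limit on dim genes, at 19.5 to 38.5 units, and its change of -0.20 was not called (adjusted p = 0.613).

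**Figure D2:**
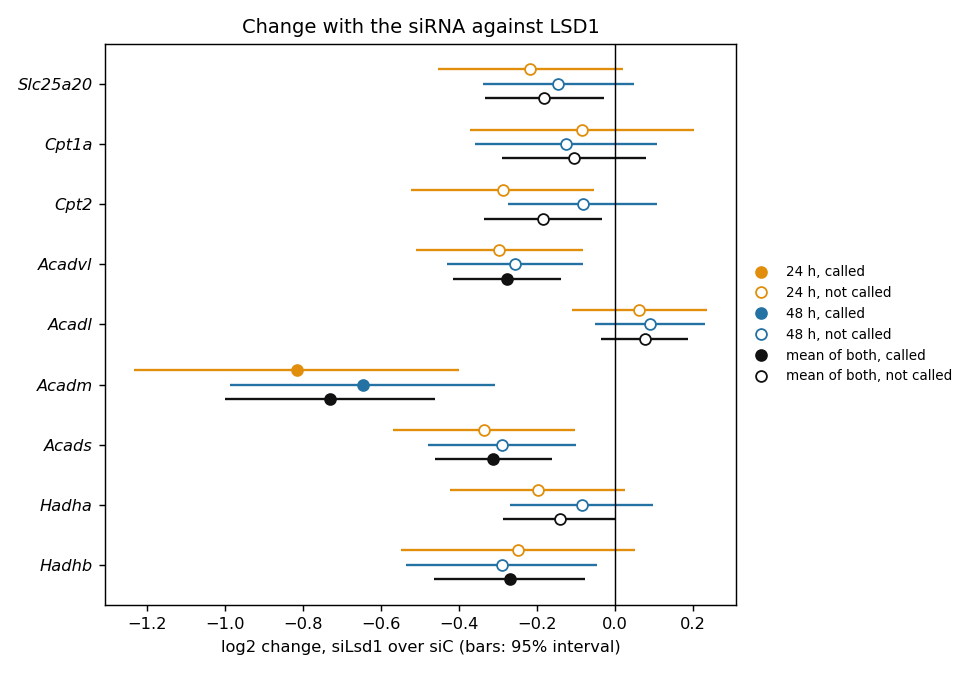
Change in log2 intensity, siLsd1 minus siC, for each of the 9 genes at 24 h, at 48 h and in the mean of both times; points are limma estimates, bars their 95% intervals, and filled points are called at an adjusted p under 0.05. Acadm is farthest below 0 at both times, and only Acadl lies above 0.

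Across the genes 8 of 9 changes were negative at 24 h (53.0% of all genes), at 48 h (52.2%) and in the mean (52.7%). Their median change was -0.25, -0.15 and -0.18 in these comparisons, beside -0.02 over all genes tested in each. At 24 h the siLsd1 arrays lay below the siC arrays without overlap for 7 of 9 genes (33.9% of all genes), and at 48 h for 4 of 9 (20.9%). The 4 genes apart at both times (15.7% of all genes) were Acadm, Acadvl, Acads and Hadha. Without the third siLsd1 array at 48 h, 4 genes were called lower at 24 h (15.3% of all genes), 4 lower and 1 higher at 48 h (9.96% lower and 8.16% higher), and 6 lower and 1 higher in the mean (19.3% lower and 14.5% higher). These were, in the mean, Acadm, Acads, Acadvl, Cpt2, Hadhb and Slc25a20 on the lower side and Acadl on the higher side.

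**Figure D3:**
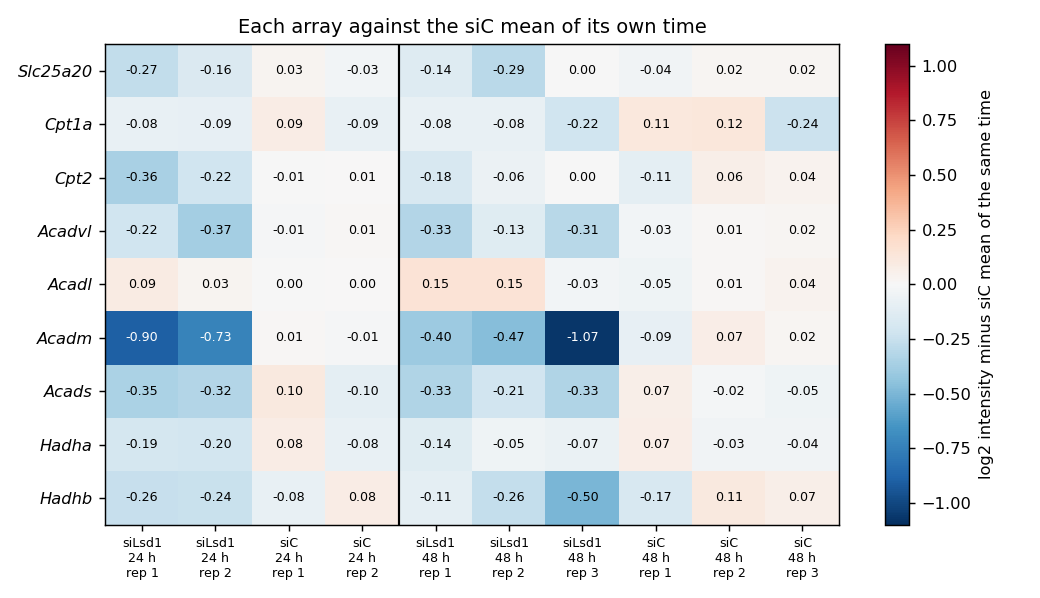
Log2 intensity of each of the 9 genes (rows) on each of the 10 arrays (columns) minus the siC mean of the same time, with the siLsd1 arrays left of the siC arrays at each time; colour and number give the difference. Acadm is lowest on the siLsd1 arrays, and on the third siLsd1 array at 48 h all 9 genes are below the siC mean.

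Whether genes of the same step responded alike was asked for every pair within the shuttle, the dehydrogenases and the trifunctional protein, for the siLsd1 change and for the time change, as 20 exact permutation tests over the 10 arrays (two-sided). The siLsd1 change of Acadm was lower than that of Acadl by a log2 difference of -0.81, than that of Acadvl by -0.46 and than that of Acads by -0.42. The changes of Acadvl and Acads differed from that of Acadl by -0.35 and -0.39. Exact p was 0.0167, the smallest this design allows, for each of these pairs but Acadm with Acads (0.0333). After adjustment over the 20 tests these became 0.0667 and 0.0741, so no pair passed an adjusted p of 0.05. The siLsd1 changes of Hadhb and Hadha differed by -0.13 (exact p = 0.3, adjusted p = 0.5), and the 3 pairs of the shuttle by 0.00 to 0.08 (adjusted p = 0.641 to 0.95).

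The siLsd1 change at 48 h minus that at 24 h was called for 0 of 9 genes by limma, 0 of them had an unadjusted p under 0.05, and the differences ranged from -0.04 (Cpt1a and Hadhb) to 0.21 (Cpt2). Over all genes tested 0 were called and 6.57% had an unadjusted p under 0.05. Without the third siLsd1 array at 48 h, 1.08% of all genes were called with a positive difference and 0.396% with a negative one, again with none of the 9 among them. For Acadm the difference was 0.17 (95% interval -0.37 to 0.71, adjusted p = 0.977), and without that array 0.38 (adjusted p = 0.0993).

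Between 24 h and 48 h, Acadm, Acadl, Acadvl and Hadhb rose in both siRNA groups, by 1.2-fold to 1.67-fold, and Hadha showed values near level. In siLsd1 cells 4 of 9 genes were called higher at 48 h than at 24 h (7.25% of all genes higher and 7.13% lower), and in siC cells the same 4 (12.0% higher and 12.2% lower). All 9 changes were positive in siLsd1 cells (51.4% of all genes) and 8 of 9 in siC cells (51.5%). The 48 h arrays lay above the 24 h arrays without overlap for 8 of 9 genes in siLsd1 cells (22.0% of all genes) and for 6 of 9 in siC cells (28.7%). The median change was 0.29 in siLsd1 cells and 0.23 in siC cells, beside 0.01 over all genes in each. The comparisons across time both differ in passage as well. They share no arrays with each other, but their tests use the same estimate of the spread, taken over the 4 groups.

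The time change of Acadm was 0.74 in siLsd1 cells (limma adjusted p = 0.0187) and 0.57 in siC cells (adjusted p = 0.0353). That of Acadvl was 0.43 (adjusted p = 0.0114) and 0.39 (adjusted p = 0.0105) in siLsd1 and siC cells. Hadhb changed by 0.45 (adjusted p = 0.0371) and 0.49 (adjusted p = 0.0169), and its second probe set by 0.49 and 0.44. Acadl changed by 0.29 (adjusted p = 0.0231) and 0.26 (adjusted p = 0.0227), again with siLsd1 cells first. Values for Hadha were 0.03 and -0.08, neither called. Acads and Cpt2 had 0.26 and 0.30 in siLsd1 cells and 0.22 and 0.09 in siC cells, not called, and Slc25a20 had 0.22 and 0.15. Cpt1a had 0.19 and 0.23 by its brightest probe set. Its probe set with the largest time change had 0.45 in siLsd1 cells (adjusted p = 0.0491 over all probe sets, of which 3.33% were called higher) and 0.36 in siC cells (adjusted p = 0.0687, with 7.10% called higher). The remaining Cpt1a probe set had 0.44 in siLsd1 cells and 0.32 in siC cells, not called (limma adjusted p = 0.0662 and 0.13 over all probe sets).

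The time change of Hadhb exceeded that of Hadha, with which it forms the trifunctional protein, by a log2 difference of 0.49 (exact permutation p = 0.02, adjusted p = 0.0667 over the 20 tests). The second Hadhb probe set gave 0.49 as well, and the third, dim one gave 0.01. Without either siLsd1 array of 24 h the exact p was 0.05. Acadm exceeded Acads by 0.41 (exact p = 0.02) and Acadl by 0.38 (exact p = 0.03), and neither passed after adjustment (0.0667 and 0.0741).

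Calls across time depended on the scaling of the arrays. Centring every array on its median moved the median of all genes from 0.01 to -0.13 in siC cells and left 1 of 9 genes called, Hadhb, at 0.35. The changes of Acadm, Acadvl and Acadl were then 0.43, 0.25 and 0.13 in siC cells, and the split of called genes moved to 1053 higher and 2623 lower, from 1640 and 1662. In siLsd1 cells centring gave 760 higher and 1311 lower in place of 989 and 973, and quantile normalization 1208 and 865. Leaving out the second siLsd1 array of 24 h left 0 of 9 genes called across time in siLsd1 cells, and leaving out any one of the other siLsd1 arrays but the third at 48 h left 1. Without that array 6 genes were called (21.3% of all genes were then called higher), the 4 above with Acads and Cpt2. These fits called 2.62% of all genes without the second siLsd1 array of 24 h and 3.45% to 7.76% without the others, against 14.4% with all arrays. In siC cells leaving out either array of 24 h left 0 called (10.9% of all genes in either fit). Without the second array of 48 h 1 was called (15.5%) and without the third 2 (18.5%), against 4 (24.2%) with all arrays. When the third siLsd1 array at 48 h was left out the 4 genes were called again (40.4% of all genes in either direction, 21.1% higher).

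**Figure D4:**
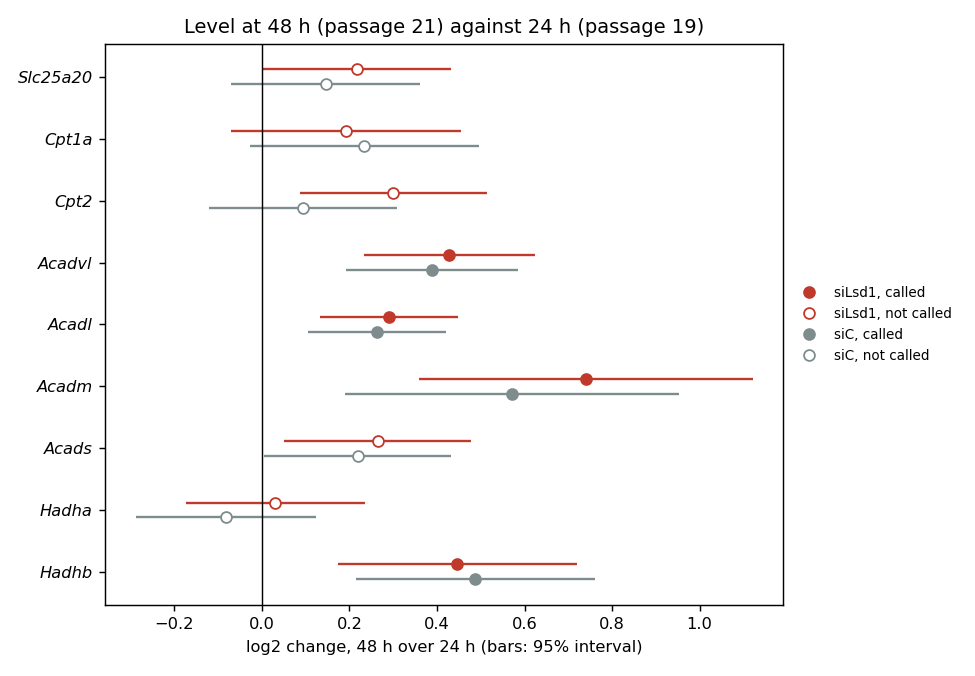
Change in log2 intensity, 48 h minus 24 h, for each of the 9 genes in siLsd1 cells and in siC cells; points are limma estimates, bars their 95% intervals, and filled points are called at an adjusted p under 0.05. Acadm, Acadvl, Hadhb and Acadl are called in both, and Hadha lies near 0.

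The other genes of the pathway were counted in 4 lists. Among other mitochondrial beta-oxidation genes 17 were tested, and 4 were called lower at 24 h (2.79% of all genes). At 48 h 6 were called lower and 1 higher (6.67% and 6.00%), and in the mean of both times 9 lower and 1 higher (13.7% and 10.1%). Without the third siLsd1 array of 48 h the count at 24 h was 8 lower and 1 higher (15.3% and 10.1% of all genes). At 48 h it was then 9 lower and 1 higher (9.96% and 8.16%), and in the mean 12 lower and 1 higher (19.3% and 14.5%). Their median change in the mean was -0.20, beside -0.02 over all genes. Acaa2, the mitochondrial 3-ketoacyl-CoA thiolase, averaged 897 ± 45.0 with siLsd1 and 1239 ± 67.6 with siC at 24 h (SD, n = 2 each), and 1230.4 ± 135 with siLsd1 and 1647 ± 61.0 with siC at 48 h (SD, n = 3 each), a mean log2 change of -0.45 (limma adjusted p = 0.00284). Hadh, the short-chain hydroxyacyl-CoA dehydrogenase that follows Acadm and Acads in the spiral, changed by -0.46 in the mean (adjusted p = 0.00178). Acad11, an acyl-CoA dehydrogenase family member, changed by -0.55 (adjusted p = 0.00449) and Acadsb, the dehydrogenase of short branched chains, by -0.58 (adjusted p = 0.00385). These 4 calls held in each of the 10 fits that leave out 1 array.

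At single times most calls named from the same list could be lost with 1 array left out, and the share of all genes called moved as well. Acad11 (-0.61), Acaa2 (-0.47), Hadh (-0.46) and Hsd17b10 (-0.36), a multifunctional mitochondrial dehydrogenase, were called at 24 h, and each call was lost in 6 to 8 of the 10 fits that leave out 1 array. Each was lost without any one of the 24 h arrays, where a group keeps 1 array. The fits without an array of 48 h called 2.62% to 25.5% of all genes at 24 h, against 5.39% with all arrays. A dim second probe set of Hadh, at a mean of 35.0 units, had 0.16 at 24 h. At 48 h Acadsb (-0.63), Acad11 (-0.49) and Hadh (-0.45) were called lower. Acot2, a mitochondrial acyl-CoA thioesterase that releases the free acid, was called higher, at 0.67 (adjusted p = 0.008), and stayed called in each of those 10 fits. Acadsb was lost without the first or second siC array of 48 h, Hadh without the second, and Acad11 in 6 of the 10. Without the first and the second siC array of 48 h, 3.58% and 2.8% of all genes were called at 48 h, against 12.7% with all arrays.

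In the list of carnitine and acyl-CoA entry, 8 of 11 genes were tested, and 0 were called at 24 h (2.60% of all genes higher and 2.79% lower). At 48 h 2 were called higher and 1 lower (6.00% and 6.67%), and in the mean 2 higher (10.1%). Leaving out the third siLsd1 array of 48 h gave 1 higher and 2 lower at 24 h (10.1% and 15.3% of all genes). It gave 2 higher and 2 lower at 48 h (8.16% and 9.96%), and 2 higher and 4 lower in the mean (14.5% and 19.3%). Acsl4 and Acsl5, long-chain acyl-CoA synthetases that act before the shuttle, rose in the mean by 0.52 (limma adjusted p = 0.014) and 0.23 (adjusted p = 0.0097). Acsl4 lost this call without the first siC array (adjusted p = 0.0634) or the first siLsd1 array (0.0664) of 24 h, and Acsl5 without that siLsd1 array (0.051). Slc22a5, the plasma membrane carnitine transporter, was called lower at 48 h, at -0.34 (adjusted p = 0.0261), and a dimmer probe set of it had 0.27. That call was lost in 5 of the 10 fits that leave out 1 array (adjusted p up to 0.0881). At 48 h Acsl4 (0.59) and Acsl5 (0.27) were called higher, and lost the call in 5 and 4 of those fits. Fits that leave out a siC array of 48 h called 2.8% to 4.1% of all genes at 48 h, against 12.7% with all arrays. At 24 h Acsl3 had -0.76 and Acsl5 0.20, not called, and 4 of the 8 genes had an unadjusted p under 0.05 (22.5% of all genes).

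**Figure D5:**
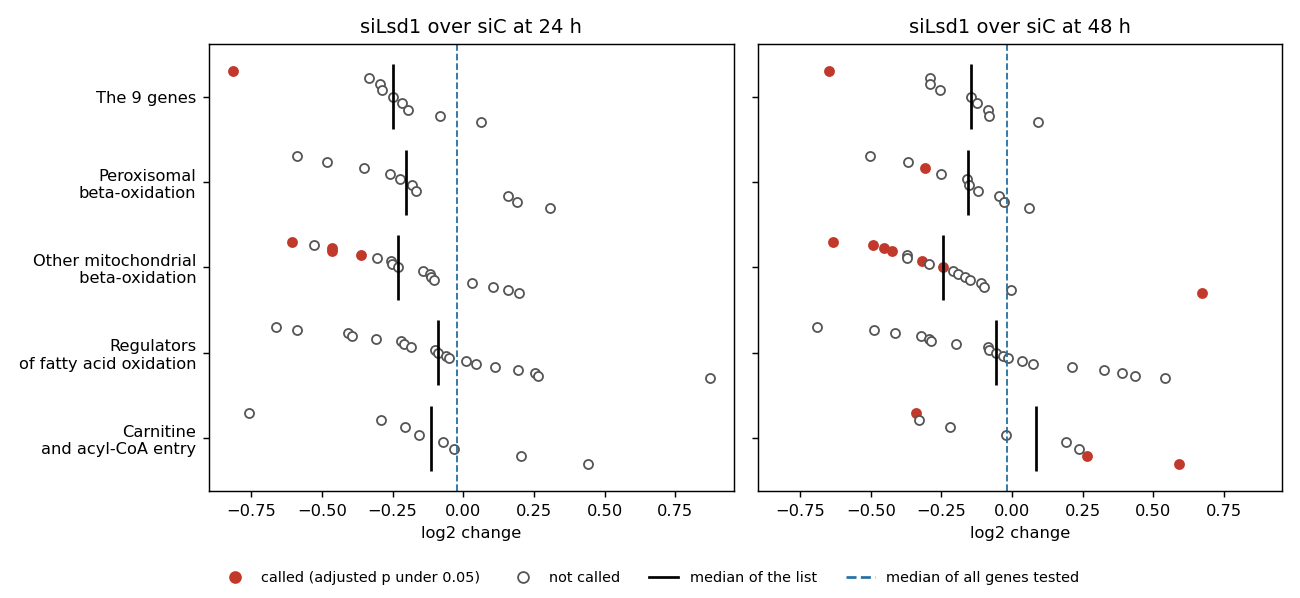
Change in log2 intensity, siLsd1 minus siC, at 24 h (left panel) and at 48 h (right panel) for every tested gene of the 9 enzymes and carriers and of the 4 other lists, with a row per list; each point is a gene, red points are called at an adjusted p under 0.05, short black lines are list medians and the dashed line is the median of all genes tested. The called genes of other mitochondrial beta-oxidation lie below 0 but for Acot2 at 48 h.

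Peroxisomes shorten very long and branched chains by their own enzymes. Of this list 10 of 14 genes were tested, and 0 were called at 24 h (5.39% of all genes in either direction). At that time 4 had an unadjusted p under 0.05 (22.5% of all genes). At 48 h 1 was called lower (6.67% of all genes), and in the mean 4 were (13.7%). With the third siLsd1 array of 48 h left out, 4 were called lower at 24 h (15.3%) and 1 at 48 h (9.96%). That fit called 4 lower and 1 higher in the mean (19.3% and 14.5%). The call at 48 h was Pecr (-0.31), and it was lost in 9 of the 10 fits that leave out 1 array (adjusted p up to 0.121). In the mean the 4 were Hsd17b4 (-0.48), the peroxisomal multifunctional enzyme, Pecr (-0.27), Amacr (-0.22) and Abcd3 (-0.21). Hsd17b4 and Pecr lost this call in 3 of the 10 fits that leave out 1 array, each an array of 24 h, and Abcd3 and Amacr in 7 and 8. Over all genes, fits without a siC array of 48 h called 2.8% to 4.1% at 48 h (12.7% with all arrays). In the mean they called 15.7% to 19.8% (23.8% with all arrays). A dim second probe set of Pecr had 0.50. Hsd17b4 had -0.59 and Decr2 -0.48 at 24 h, not called.

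Among the regulators of fatty acid oxidation 19 of 20 genes were tested. At 24 h 0 were called (5.39% of all genes in either direction) and at 48 h 0 (12.7%). An unadjusted p under 0.05 was found for 6 at 24 h and 8 at 48 h (22.5% and 31.7% of all genes). Rxra had -0.59 and Nrip1 -0.41 at 24 h, and Lpin1 had -0.69 and Sirt1, a deacetylase, 0.43 at 48 h. In the mean 2 were called higher and 3 lower, near the shares of all genes (10.1% and 13.7%). When the third siLsd1 array of 48 h was left out, 5 were called lower at 24 h (15.3% of all genes) and 5 at 48 h (9.96%). In the mean 2 were then called higher and 5 lower (14.5% and 19.3%). Ppargc1b, a coactivator of the pathway, was higher by 0.71 (limma adjusted p = 0.0214) at a low level, with 38.5 ± 2.15 units with siLsd1 and 21.4 ± 5.89 with siC at 24 h (SD, n = 2 each). Rxra, the partner of the PPAR receptors, was lower by its brightest probe set (-0.50, adjusted p = 0.0165), while dimmer probe sets of it had 0.17 and 0.53. Acacb, which makes the malonyl-CoA that inhibits CPT1, had -0.58 (adjusted p = 0.0414), with a dim probe set at 0.08. Nrip1, a corepressor of oxidative genes in fat cells, had -0.36 (adjusted p = 0.013), and Sirt1 was the other gene called higher, at 0.35 (adjusted p = 0.0461). Acacb and Sirt1 were each lost in 7 of the 10 fits that leave out 1 array, Rxra in 4, Ppargc1b in 3 and Nrip1 in 2. The fits without an array of 48 h called 15.7% to 33.8% of all genes in the mean, against 23.8% with all arrays. Ppara, Ppargc1a and Esrra, which are known to drive this pathway in other tissues, had 0.22, -0.25 and 0.00 and were not called.

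Over the 10 arrays the log2 intensity of Acadm followed that of Hadhb (Pearson r = 0.93), Acads (0.91) and Acadvl (0.90), and less that of Acadl (0.48) and Hadha (0.41). Hadha and Hadhb had r = 0.06. The 3 genes most like Acadm among all genes tested were 1810062G17Rik (r = 0.996), Faap20 (r = 0.993) and Ndrg4 (r = 0.993). Ndrg4 averaged 190.2 units with siLsd1 and 394 with siC at 24 h, and 382 with siLsd1 and 634 with siC at 48 h. These correlations are across arrays that share groups and times, and are a description.

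Some markers of cell state differed between the siRNAs as well. The summed intensity of the 10 mature adipocyte markers measured was 10912 to 11002 with siLsd1 and 13122 to 13236 with siC at 24 h, and 12054 to 12338 with siLsd1 and 14379 to 14882 with siC at 48 h. Most of that difference lay in Fabp4, a fatty acid binding protein of fat cells. It read 1320.2 to 1614 with siLsd1 and 3500.4 to 3580.1 with siC at 24 h, and 1384 to 3008 with siLsd1 and 4539 to 5333 with siC at 48 h. Of the 6 mature adipocyte markers tested, Fabp4 was called lower at both times and in the mean (-1.22, limma adjusted p = 0.00258), and Pnpla2, a triglyceride lipase, was called higher in the mean (0.31, adjusted p = 0.0406). The median change of the 6 was -0.05 at 24 h, -0.05 at 48 h and 0.02 in the mean, where 3 changes were negative and 3 positive. The summed preadipocyte and fibroblast markers read 74726 to 74859 with siLsd1 and 80711 to 82730 with siC at 24 h, and 63475 to 79542 with siLsd1 and 84426 to 85431 with siC at 48 h. All 10 preadipocyte and fibroblast markers tested had a negative change in the mean (52.7% of all genes) and at 48 h (52.2%). At 24 h 7 were negative and 3 positive (53.0% and 47.0% of all genes). In the mean the changes ran from -0.83 to -0.0023, with a median of -0.31. Of these markers 4 were called lower in the mean (13.7% of all genes), 1 at 24 h (2.79%) and 1 at 48 h (6.67%). Without the third siLsd1 array of 48 h the median in the mean was -0.22 and 6 were called lower (19.3%). The part of either list of markers in the changes of the 9 genes was not tested.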

How the data were processed

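Transcript levels were measured in 10 samples on Affymetrix arrays with biotin-labelled cRNA, as the labels' protocols describe. The deposited values are linear probe set intensities, which the authors had processed, and the summarisation, normalization and genome build behind them are not given in the sources used here. They were taken to log2 with nothing added. Of 45037 probe sets, 34945 carried a single symbol in the platform annotation, 932 several and 9160 none. Each gene was read from its probe set with the highest mean log2 intensity, and the dimmest 25% of 18193 genes were left out. Groups follow the siRNA and time in the labels.

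The 4 group means were estimated with R 4.3.3 and limma 3.58.1, by lmFit and a moderated test whose prior variance follows intensity, on 6 residual degrees of freedom. Benjamini-Hochberg adjustment ran within each of 6 comparisons, and adjusted p-values with no other name are from these fits. The 20 pair comparisons used exact permutation, of siRNA within time or of time within siRNA, adjusted over the 20. Promoter windows are those of RefSeq (GRCm38.p6), and figures were drawn with matplotlib 3.10.9. The limma fit was checked on made data with known answers.

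The 9 genes, the other lists and the tests were chosen with earlier results of these data known, and the pair comparisons after the values of these genes were seen. Named are all 9 with every probe set, Kdm1a, up to 4 called genes per list and comparison with the largest change (if none was called, up to 2 genes of lowest p), and the 3 genes most like Acadm. Ppara, Ppargc1a and Esrra, and Sirt1 in the mean, were named outside that rule after their values were seen. The number of arrays limits the precision. Other settings tried were every probe set on its own, averaged probe sets, the dim limit removed or raised to 50%, quantile normalization, median centring, 16 units added, no trend, array weights, only the compared arrays, a replicate block by number or by sample code, and each array left out in turn.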

Additional observations from a re-analysis of the deposited data

How the results depend on the processing

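Over the 9 genes and 6 comparisons, 1005 of the values under an alternative kept their direction and their side of the threshold, 80 lost a call, 41 gained one and 26 changed sign; the cause was not tested. The number of genes called at 24 h, 1 under the main settings, was 0 with all probe sets (2.17% of all genes called) or no intensity trend (2.95%), 4 with array weights (26.2%), 5 with the 24 h arrays alone (23.3%), and 0 to 4 with 1 array left out (0.22% to 25.5%), against 5.39% under the main settings. At 48 h, in place of 1 (12.7%), it was 3 with the lowest 50% left out (21.3%), 2 with quantile normalization (15%), 0 without the trend (7.37%) or with the 48 h arrays alone (1.83%), 7 with array weights (36.1%), and 0 to 5 with 1 array left out (2.8% to 18.1%). In the mean it was 7 with array weights (41.1%) and 2 to 7 with 1 array left out (9.87% to 33.8%), in place of 4 (23.8%). Across time, in place of 4, siC cells gave 2 with averaged probe sets (19.7%) or no trend (21.3%), 1 with arrays centred on the median (26.9%) and 0 to 4 with 1 array left out (10.9% to 40.4%), and siLsd1 cells gave 2 without the trend (11.4%), 7 with array weights (46.4%), 0 with their arrays alone (2.54%) and 0 to 6 with 1 array left out (2.62% to 38.3%). Every alternative gave 0 for the difference of the siLsd1 changes.

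Signs that turned were mostly of values near 0. Averaging the probe sets of each gene, which brings in dim ones, gave other signs: Acadl had -0.13 and Cpt2 0.12 at 48 h, Pecr 0.12 and Rxra 0.0657 in the mean, and Crot 0.0476 across time in siC cells, and the difference of the changes was -0.36 for Acadl and 0.0569 for Cpt1a. Centring on the median gave a difference of 0.0199 for Cpt1a and 0.0192 for Hadhb, and time changes of -0.0425 for Cpt2 and -0.0255 for Kdm1a in siC cells and -0.0447 for Hadha in siLsd1 cells. Array weights gave Slc25a20 a difference of -0.0243. With 1 array left out, Cpt1a ranged from -0.17 to 0.00154 at 24 h, and the difference of the changes from -0.00339 to 0.0878 for Acadl, -0.0589 to 0.15 for Acads, -0.0387 to 0.12 for Acadvl, -0.16 to 0.0446 for Cpt1a, -0.13 to 0.0636 for Hadhb and -0.00148 to 0.14 for Slc25a20.

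Same-numbered arrays did not deviate together (r = -0.07 at 24 h, and -0.19, 0.05 and -0.06 at 48 h), so the numbers were not taken as pairs. A replicate block by number gave 1, 1 and 3 genes called at 24 h, at 48 h and in the mean, the last without Hadhb. Over all genes it called 4.98%, 14.7% and 24%. A replicate block by the labels' sample code also gave 1, 1 and 3, with 10.8%, 16.5% and 23.9% of all genes called. It gave a difference of 0.00842 for Hadhb and -0.0197 for Slc25a20, and could not be fitted across time. With 2 or 3 arrays a group, changes of the size seen for most of the 9 genes can be missed, and a missing call at 24 h or 48 h does not show that a level was equal.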
